A study of Mus musculus with 7 samples.

Results

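A set of 90 genes was high in an untreated Egfr-mutant mouse tumor, low after 3 and 14 days of gefitinib, and still low 7 days after the drug was stopped. The genes were selected on measured TPM values, a length-normalized transcript abundance, in 4 of the 7 libraries of the study. With L standing for log2(TPM + 1), each gene with at least 10 TPM in the day 3 vehicle library received as its score the smallest of 3 drops in L, from that library to gefitinib day 3, gefitinib day 14 and vehicle day 21. The 100 highest scores of 9237 such genes (21892 are listed in all) were taken. Among them 10 were left out by name: predicted genes, histone genes, Scgb and Dcpp secretory genes, Dlk1, Cd177 and Lce3f. Lower values in those 3 libraries than in the day 3 vehicle library are therefore what chose the genes and are given as a description.

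The samples are labelled lung tumor and come from subcutaneous Egfr exon 19 deletion tumors kept by passage in C57BL/6J mice, so that host skin, fat and muscle can enter a sample. The sources used here give no age of the mice. The 7 groups were vehicle at day 3 (no drug, called the untreated tumor); gefitinib, which inhibits the EGFR kinase, for 3 days or for 14 days; and 14 days of gefitinib followed by 7 days of vehicle, of DC101 (an antibody against mouse VEGFR2), of 4H2 (an antibody against PD-1) or of both. Each group is 1 library, and how many mice stand behind it is not known. There is thus no replicate spread, no test and no error, and every difference is between 2 libraries. The only library without gefitinib is the day 3 vehicle library. The day 3 gefitinib library shares its day. In that pair gefitinib, the amount of host tissue in each sample and chance values of single libraries cannot be told apart. For the day 14 and day 21 libraries, days in the animal cannot be told apart from these either.

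Lung epithelium is laid down by a branching tip whose progenitor cells carry the transcription factor Sox9 and the helix-loop-helix inhibitor Id2, and it later forms alveolar type 1, alveolar type 2 and airway secretory cells. Tumors driven by mutant EGFR usually keep an alveolar identity and depend on EGFR signalling for division. Withdrawal of a kinase inhibitor commonly lets such cells divide again.

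The libraries held their labelled tissue to differing degrees. The lung lineage factor gene Nkx2-1 was at 391.6 TPM in the untreated tumor, 203.5 and 122.3 on gefitinib (day 3, day 14), 238.3 with vehicle at day 21 and 201.0 with DC101, against 1.1 for 4H2 and 14.0 for the combination. The 15 alveolar type 2 genes, Nkx2-1 among them, held 2.74%, 3.14%, 4.61%, 3.33%, 3.46%, 2.57% and 1.83% of all TPM in that order. They were mixed: 10 and 8 were at least 2-fold lower on gefitinib (day 3, day 14), and 2 and 3 higher. Of these genes, Cd74 was at 4529.4 TPM in the untreated tumor and 17677.0 with 4H2. The 15 epithelial marker genes held 0.482% of all TPM in the untreated tumor, 0.155% and 0.239% on gefitinib (day 3, day 14), 0.862% after 7 days of vehicle, 0.583% with DC101, 0.00533% with 4H2 and 0.0460% with both. The 12 skeletal muscle genes held 0.0287%, 0.210%, 0.341%, 0.287%, 1.57%, 7.32% and 7.29% in the same order. Low epithelial and high muscle RNA thus moved together in the 4H2 and combination libraries. Macrophage markers held 0.148% of TPM in the untreated tumor and 1.24%, 1.42%, 0.628%, 0.571%, 0.993% and 0.768% in the later libraries. Fibroblast markers held 0.243% and then 2.44%, 1.25%, 0.876%, 0.731%, 0.932% and 0.960%. Both were thus lowest in the untreated tumor, where 89 of the 90 genes were highest, and their part in the results was not tested. In such tissue, fewer cells of a type and less RNA per cell cannot be told apart.

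The 90 genes together held 1.05% of all TPM in the untreated tumor, 0.192% and 0.202% on gefitinib (day 3, day 14), 0.332% after 7 days of vehicle, 0.467% with DC101, 0.0943% with 4H2 and 0.124% with both antibodies. Their median TPM was 43.5 in the day 3 vehicle library and then 5.55, 6.5, 11.4, 15.3, 2.15 and 3.5. The day 3 vehicle library was the highest of the 7 for 89 of the 90 genes, and the exception was Cmbl, an esterase gene. Scores ran from 1.34 to 3.70 (median 1.60), a smallest drop of 2.53-fold to 13.0-fold on the L scale. For 63 genes the day 21 vehicle library set the score, for 15 gefitinib day 14 and for 12 gefitinib day 3. Just inside the limit were Pdcd4, Acpp and Noxo1 (1.35 each), Prr29 and Slc39a10 (1.34 each), and just outside it Hist1h2ag (1.33), Elf5 (1.32), Hist2h2bb, Tmem107 (1.30 each) and Hist1h2ad (1.28).

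All 90 genes were by construction at least 2-fold lower than vehicle at day 3 of gefitinib (18.0% of the 9237 genes were), at day 14 (16.2%) and in the day 21 vehicle library (3.46%). Their median differences in L were -2.40, -2.48 and -1.66, beside medians over the 9237 genes of -0.28, -0.20 and -0.06. Of the 9237 genes, 243 (2.63%) were at least 2-fold lower in all 3 libraries. The plot of the 90 genes by function shows them paler, and so closer to the untreated tumor, in the day 21 vehicle and DC101 columns than in the others.

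**Figure D1:**
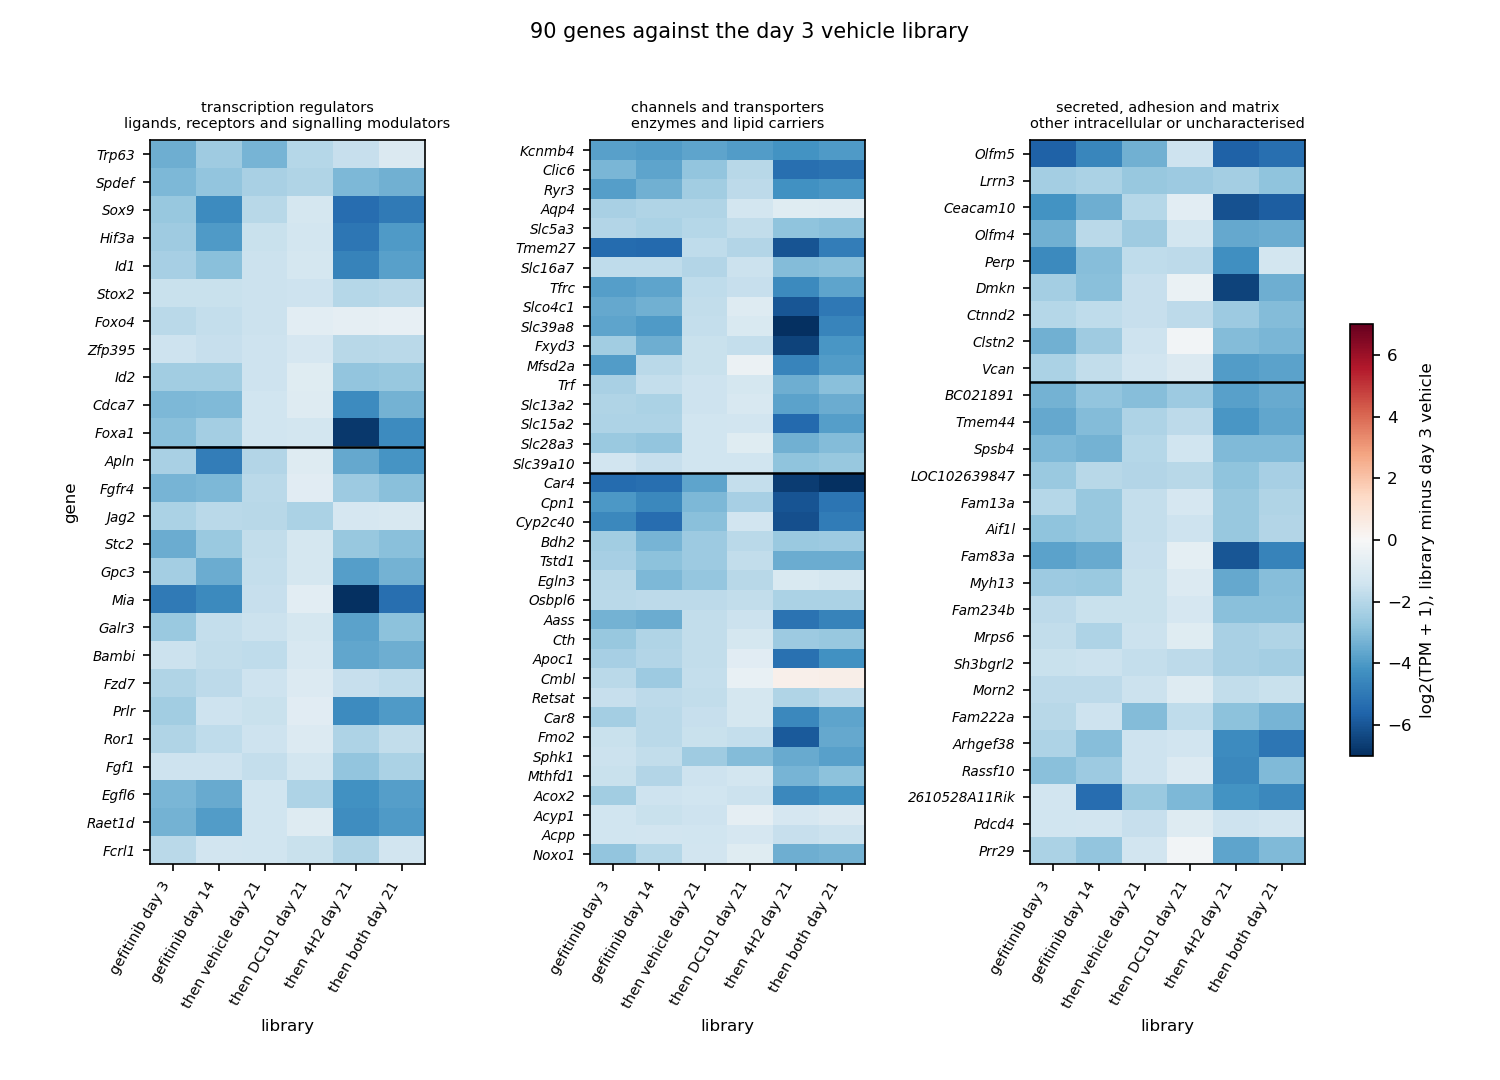
Each row is 1 of the 90 genes and each column 1 of 6 libraries; colour gives log2(TPM + 1) in that library minus the day 3 vehicle library, blue for lower and red for higher (full colour from 7 on), with black lines between the functional groups named above each panel. The 4H2 and combination columns hold the darkest cells, down to -7.40 for Mia, and Cmbl is the only gene above 0 there.

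The highest score belonged to Kcnmb4 (chromosome 10, 116417861 to 116473859 in GRCm38.p6), which encodes a regulatory subunit of the calcium-activated BK potassium channel. It was at 34.0 TPM in the untreated tumor, 1.5 and 1.3 on gefitinib (day 3, day 14), 1.7 after 7 days of vehicle, 1.3 with DC101, 0.9 with 4H2 and 1.2 with both. Its 6 later values all lay between 0.9 and 1.7, so no library after the first came near it. Antisense genes lie over Kcnmb4, as genes of the opposite strand do for 15 of the 90, and the sources used here do not say whether the counting used strand. Car4 (chromosome 11, 84957754 to 84966054), a carbonic anhydrase anchored on the cell surface that marks some alveolar and vessel cells, was at 251.5 TPM and then 5.0, 5.4, 18.5, 77.2, 1.5 and 1.0. Unlike Kcnmb4, it was higher in both day 21 libraries without 4H2 than under gefitinib, and higher with DC101 than with vehicle. Olfm5, an olfactomedin family gene, followed the same order at 49.6, 0.0, 1.1, 3.9, 17.2, 0.0 and 0.3 TPM.

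The other genes among the 20 highest scores included Cpn1, which encodes the catalytic subunit of carboxypeptidase N (65.1 TPM, then 3.0, 1.9, 6.5, 12.0, 0.0 and 0.9 in the same order), and the cytochrome P450 gene Cyp2c40 (70.2, then 2.1, 0.8, 8.5, 27.0, 0.0 and 1.4). Clic6, a chloride intracellular channel family gene, was at 48.9 and then 4.4, 2.8, 6.3, 12.1, 0.3 and 0.4 TPM. All 3 had their lowest value, 0.0 to 0.3 TPM, in the 4H2 library, which holds little epithelial RNA. Ryr3, Bdh2, Tstd1, Spdef, Lrrn3, Tmem44, Aqp4, Apln, Slc5a3, Spsb4, Ceacam10, Egln3, BC021891 and Trp63 also belong there, with day 3 vehicle levels from 10.1 (Tstd1) to 227.4 TPM (Apln). Cyp2c40 and Ceacam10 have close relatives in the genome, and the sources used here do not say how shared reads were handled.

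**Figure D2:**
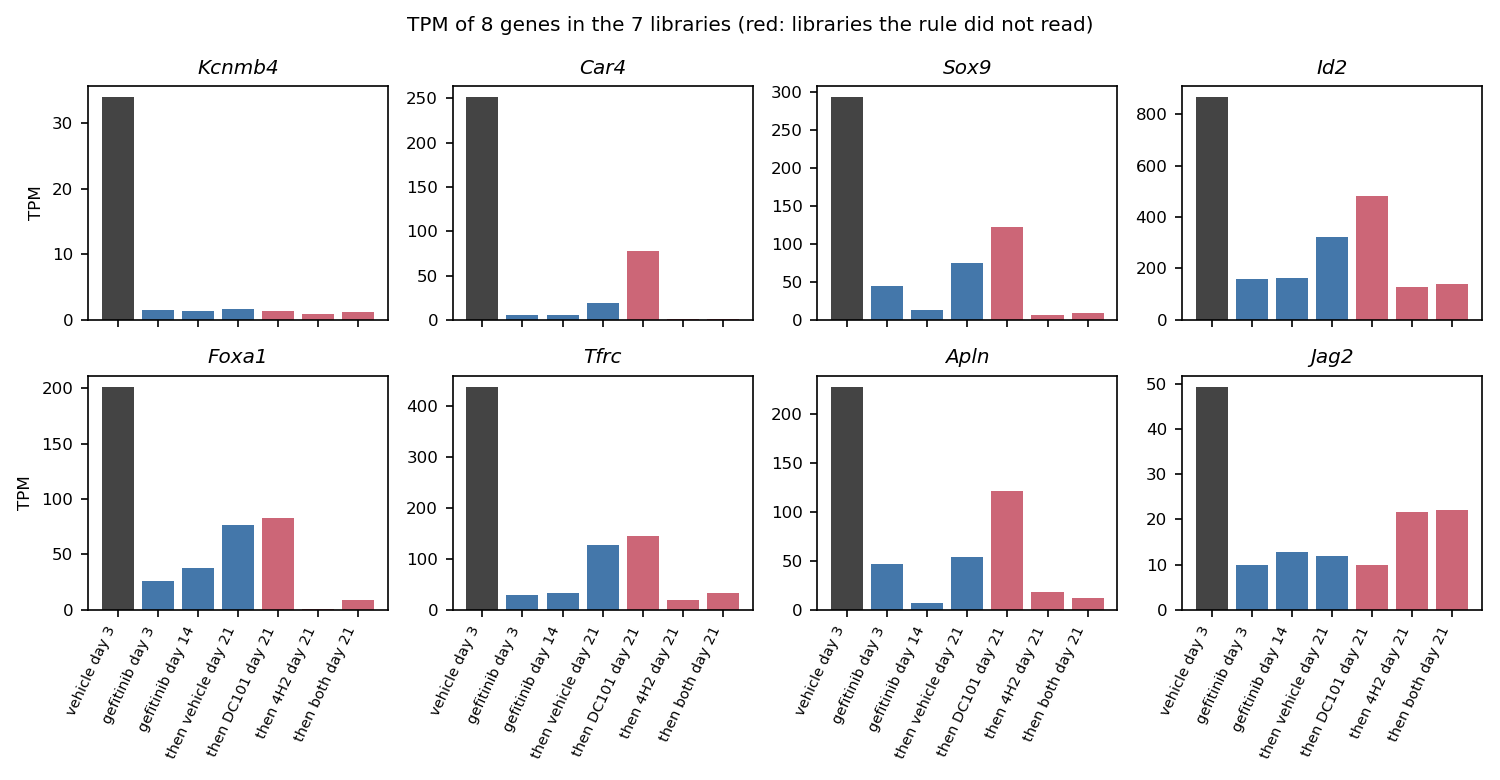
Bars give TPM of 8 genes in the 7 libraries, grey for day 3 vehicle, blue for the other libraries that chose the genes and red for those that did not. Kcnmb4 stays at 0.9 to 1.7 TPM in every library after the first, Car4, Id2 and Apln are higher with DC101 than with vehicle at day 21, and Jag2 is higher with 4H2 (21.6) and both antibodies (22.1) than with DC101 (9.9).

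The 250 bases before the annotated start (RefSeq, GRCm38.p6, strand of the gene, 5′ to 3′) are shown for 4 genes whose levels carry the pattern: Car4, of the second highest score, the regulator gene Id2, the ligand gene Apln and the transferrin receptor gene Tfrc. Capitals mark matches on either strand to the motifs of the next paragraph, and matches may overlap.
Car4 (chr11:84957504-84957753, plus strand): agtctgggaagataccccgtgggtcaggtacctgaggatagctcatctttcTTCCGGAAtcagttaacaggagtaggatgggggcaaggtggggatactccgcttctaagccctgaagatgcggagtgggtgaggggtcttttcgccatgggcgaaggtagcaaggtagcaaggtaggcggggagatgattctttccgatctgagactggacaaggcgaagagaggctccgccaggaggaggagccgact
Id2 (chr12:25096093-25096342, minus strand): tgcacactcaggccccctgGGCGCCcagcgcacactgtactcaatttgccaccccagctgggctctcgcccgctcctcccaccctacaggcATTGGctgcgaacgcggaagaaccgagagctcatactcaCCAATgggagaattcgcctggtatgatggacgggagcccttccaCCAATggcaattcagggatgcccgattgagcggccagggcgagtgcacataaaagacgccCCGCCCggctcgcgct
Apln (chrX:48034854-48035103, minus strand): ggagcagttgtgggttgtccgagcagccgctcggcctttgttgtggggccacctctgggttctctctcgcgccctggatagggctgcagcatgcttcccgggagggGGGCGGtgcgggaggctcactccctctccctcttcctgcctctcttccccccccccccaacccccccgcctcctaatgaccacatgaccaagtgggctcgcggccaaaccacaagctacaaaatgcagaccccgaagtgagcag
Tfrc (chr16:32608646-32608895, plus strand): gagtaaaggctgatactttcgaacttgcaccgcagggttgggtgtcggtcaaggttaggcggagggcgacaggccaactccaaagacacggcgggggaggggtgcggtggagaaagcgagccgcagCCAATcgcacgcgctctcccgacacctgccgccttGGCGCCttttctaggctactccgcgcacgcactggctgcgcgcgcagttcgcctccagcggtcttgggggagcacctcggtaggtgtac

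A promoter entry was found for 68 of the 90 genes, 1 entry per gene, and 8 short motifs were searched in the 250 bases on both strands. In 24 of the 68 the window overlaps the annotated gene, and in 11 of these, Kcnmb4 among them, it lies wholly inside it. The GC box GGGCGG was present in 30 of 68 (44.1%), beside 32.9% of all 27025 promoters and 62.5% of the 7430 promoters of genes with at least 10 TPM in the day 3 vehicle library. The ETS core CCGGAA was in 10 of 68 (14.7%; 12.2% and 24.2% in the same sets); in Car4 it lies on both strands over the same bases. The AP-1 site TGANTCA was in 4 of 68 (5.88%; 6.87% and 3.96%), the forkhead site TGTTTAC in 2 of 68, Cpn1 and Foxa1 (2.94%; 3.09% and 2.19%), and the TATA box TATAAA in 7 of 68 (10.3%; 13.0% and 6.02%). ACGTG, the core of the hypoxia element, was in 10 of 68 (14.7%; 16.6% and 23.2%), CCAAT in 24 of 68 (35.3%; 34.5% and 36.8%) and GGCGCC, a BMP response element core, in 12 of 68 (17.6%; 9.54% and 17.9%). Median GC content was 58.0% for the 68, 60.4% for the expressed genes and 52.0% for all promoters. A match is a description of letters in these windows.

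Of the set, 11 genes encode transcription regulators. Sox9 (chromosome 11, 112782210 to 112787757) was at 293.4 TPM in the untreated tumor, 45.2 and 13.0 on gefitinib (day 3, day 14), 75.3 after 7 days of vehicle, 122.9 with DC101, 6.2 with 4H2 and 8.6 with both antibodies. It was lower at day 14 than at day 3 of gefitinib by 1.72 in L, and both day 21 libraries without 4H2 lay between the gefitinib and the untreated values. Id1 and Id2, which encode inhibitors of helix-loop-helix factors induced by BMP signalling, followed a like order of libraries. Id1 was at 445.1, 88.1, 57.9, 155.5, 188.4, 16.4 and 30.5 TPM, and Id2 (chromosome 12, 25093799 to 25096092) at 867.2, 160.4, 162.5, 320.7, 482.2, 127.3 and 139.0. Id2 was the second most abundant of the 90 genes in the untreated tumor and kept over 100 TPM in every library, unlike Sox9.

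Foxa1, a pioneer factor of lung and other endodermal epithelium, was at 201.3 TPM and then 26.1, 37.5, 76.9, 82.8, 0.9 and 8.7. With 4H2 it was thus near 0, as the epithelial markers were (Epcam 3.0 TPM). Spdef, an ETS factor of mucus-producing cells, was at 11.4 and then 0.4, 0.8, 1.6, 1.9, 0.4 and 0.2 TPM. Trp63, which marks basal and squamous cells, was at 14.1 and then 0.4, 1.7, 0.6, 2.8, 4.0 and 6.4 TPM, so its antibody values were highest with both antibodies, the library with the most skin and hair marker RNA (0.0442% against at most 0.00873% in the others). Whether skin gave the Trp63 RNA was not tested. Hif3a, a hypoxia-inducible factor family member, was at 38.9, 6.1, 1.6, 12.3, 15.1, 0.2 and 1.6 TPM; Foxo4, a forkhead factor restrained by AKT, was at 82.9, 22.0, 25.6, 29.0, 48.6, 53.9 and 55.4, within 2-fold of the untreated tumor in all 3 antibody libraries. Cdca7, a chromatin protein gene of dividing cells, was at 103.7, 10.8, 11.4, 38.4, 55.3, 3.9 and 9.7 TPM. Zfp395 and Stox2 complete the group.

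Secreted ligands, receptors and their modulators made up 15 genes. Apln, which encodes the ligand of the apelin receptor on endothelium, was at 227.4 TPM in the untreated tumor, 47.0 and 7.0 on gefitinib (day 3, day 14), 53.8 after 7 days of vehicle, 121.3 with DC101, 17.8 with 4H2 and 12.0 with both. Its gefitinib values differed by 2.58 in L, the largest difference between days 3 and 14 apart from 2610528A11Rik (14.7 TPM at day 3, listed at 0 at day 14). Gpc3, a heparan sulfate proteoglycan gene of fetal growth, was at 240.0, 45.1, 20.9, 73.8, 102.7, 15.4 and 23.3 TPM. It was the only gene of the set in the fetal and oncofetal list, of which 2 of 7 genes with at least 10 TPM in the untreated tumor were at least 2-fold lower in all 3 libraries; the other was Dlk1, left out by name.

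Mia, a small secreted protein gene, was at 252.0, 7.3, 10.6, 82.3, 148.7, 0.5 and 5.6 TPM in that order. Fgfr4, a receptor for fibroblast growth factors, was at 10.6, 0.2, 0.3, 2.1, 5.7, 1.0 and 0.5 TPM, and the growth factor gene Fgf1 at 74.1, 26.2, 26.9, 22.5, 29.9, 9.9 and 15.1. Fgf1 stayed between 22.5 and 29.9 TPM in the 4 libraries after vehicle that held epithelial RNA, whereas Mia varied between 7.3 and 148.7 in them. Jag2, a Notch ligand gene, was at 49.3, 9.9, 12.7, 12.0, 9.9, 21.6 and 22.1 TPM, and was at least 2-fold higher on the L scale with 4H2, and with both antibodies, than with DC101. On that scale no other of the 90 genes was, but under median-of-ratios rescaling 3 genes were in either pair, and Trp63 and Cmbl exceed 2-fold in plain TPM with both antibodies. The WNT receptor genes Fzd7 (181.0, 40.7, 49.9, 65.4, 92.0, 58.8 and 51.4 TPM) and Ror1 (11.2, 1.8, 2.5, 3.5, 5.2, 1.7 and 2.7), and Bambi, a decoy receptor of BMP and TGF-beta signalling (28.6, 9.5, 8.0, 7.8, 12.8, 1.4 and 1.8), also belong to this group. The others are the stanniocalcin gene Stc2, Egfl6, the prolactin receptor gene Prlr, the galanin receptor gene Galr3, Raet1d, a ligand of the NK cell receptor NKG2D, and Fcrl1.

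Channels, transporters and iron proteins formed a group of 17. Trf, the gene of the iron carrier transferrin, was the most abundant of the 90 at 2195.8 TPM in the untreated tumor, 461.9 and 693.0 on gefitinib (day 3, day 14), 815.8 after 7 days of vehicle, 931.8 with DC101, 207.5 with 4H2 and 289.4 with both. Tfrc (chromosome 16, 32608896 to 32632794), the transferrin receptor gene, was at 436.5, 29.0, 33.2, 126.0, 144.1, 18.9 and 33.3 TPM. In the day 21 vehicle and DC101 libraries Trf was thus at 37.2% and 42.4% of its untreated TPM, and Tfrc at 28.9% and 33.0%. Slc39a8, an importer of zinc, manganese and iron, was at 271.9, 20.3, 16.5, 85.5, 127.1, 1.2 and 10.3 TPM, and the zinc importer gene Slc39a10 at 51.7, 19.8, 16.4, 19.1, 19.4, 6.6 and 7.3.

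Slc5a3, a myo-inositol transporter gene, was at 35.0, 7.6, 6.7, 7.9, 9.8, 4.2 and 3.7 TPM. It shares exons on the same strand with Mrps6 (179.4, 54.4, 38.7, 62.1, 98.4, 36.5 and 40.6 TPM), a mitochondrial ribosomal protein gene that is also in the set, so these 2 are not independent. Aqp4, a water channel gene, was at 29.3, 5.2, 6.1, 6.1, 11.4, 15.8 and 15.4 TPM: it was higher with 4H2 and both antibodies than with DC101, in libraries rich in muscle RNA. Tmem27, which encodes collectrin, was at 77.9, 0.9, 0.8, 21.7, 18.0, 0.2 and 1.8 TPM, the gene that stood highest above gefitinib day 14 in the day 21 vehicle library (3.66 in L). The group also holds peptide, monocarboxylate, nucleoside, organic anion, dicarboxylate and lipid transporters (Slc15a2, Slc16a7, Slc28a3, Slco4c1, Slc13a2 and Mfsd2a) and Fxyd3, a modulator of the sodium pump.

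Enzymes and lipid carriers made up 20 genes. Apoc1, an apolipoprotein gene, was at 716.0 TPM in the untreated tumor, 144.2 and 171.9 on gefitinib (day 3, day 14), 218.9 after 7 days of vehicle, 415.1 with DC101, 18.2 with 4H2 and 37.7 with both antibodies. Mthfd1, a folate enzyme of one-carbon metabolism, was at 259.6, 89.0, 61.8, 94.8, 106.1, 26.1 and 34.4 TPM, and Cth, which makes cysteine from cystathionine, at 11.4, 1.0, 1.9, 2.7, 4.3, 1.1 and 1.0. These 2 were the members of the serine, one-carbon and ATF4 list, and the only genes of its 17 with enough untreated expression that were at least 2-fold lower in all 3 libraries. Egln3, a prolyl hydroxylase that marks HIF factors for degradation, was at 64.2, 15.8, 6.4, 8.9, 15.8, 30.3 and 27.1 TPM. It was higher with 4H2 and both antibodies than with DC101, as was the hypoxia and glycolysis list as a whole (1.22% and 1.21% of TPM against 0.697%), in the libraries rich in muscle RNA; muscle as the source was not tested.

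Sphk1, which makes sphingosine 1-phosphate, was at 49.1, 16.8, 14.0, 7.8, 5.0, 3.3 and 2.6 TPM, so that all 4 day 21 libraries lay below both gefitinib libraries. Cmbl was at 14.1, 3.1, 1.6, 3.8, 9.4, 18.2 and 19.0 TPM, and is the only gene of the set above the untreated tumor in any library. Fmo2, a flavin monooxygenase gene, was at 212.5, 71.1, 57.1, 70.8, 66.9, 2.6 and 16.6 TPM. The group further holds lysine (Aass), peroxisomal (Acox2), retinol (Retsat) and carbonic anhydrase family (Car8) genes. Secreted, adhesion and matrix genes were 9: besides Olfm5 and Ceacam10 they include Olfm4, a stem cell and goblet cell gene of the gut (11.2, 0.2, 2.3, 1.2, 4.0, 0.0 and 0.1 TPM), the matrix proteoglycan gene Vcan (124.3, 25.6, 37.2, 47.7, 62.2, 7.4 and 8.5), Dmkn (117.3, 21.6, 14.7, 37.1, 86.1, 0.3 and 10.2) and the desmosome gene Perp (84.4, 2.9, 9.7, 23.8, 22.6, 3.3 and 34.3). The remaining 18 genes are intracellular proteins of other kinds or uncharacterised, such as Fam83a, a MAPK pathway adaptor (87.2, 5.6, 6.7, 28.0, 54.6, 0.4 and 2.4 TPM).

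The genes described as not recovered were not all at their gefitinib level at day 21. Both libraries compared next were read by the rule, so the counts and the shares regained are a description. Between day 14 of gefitinib and the day 21 vehicle library, 72 of the 90 genes were higher, beside 58.9% of the 9237 genes. Of the 90, 34 were higher by at least 2-fold (8.83% of the 9237) and 1, Fam222a, was at least 2-fold lower (3.06%). The median gene had regained 26.0% of its log2 drop, 16 genes had regained 50% or more, and 18 had regained nothing. Apln, Sox9, Mia, Raet1d and Tmem27 were among those that regained most (57.4%, 55.7%, 64.0%, 64.6% and 67.0%). Besides Fam222a (15.3 TPM untreated, 4.9 at day 14 and 1.0 at day 21), Sphk1, Trp63, Olfm4 and Lrrn3 were lower at day 21 than at day 14. In TPM the 90 genes stood at 4.26% to 38.4% of the untreated level (median 30.2%), and the upper limit follows from the rule. Between days 3 and 14 of gefitinib the genes were mixed: 7 were at least 2-fold lower (1.36% of the 9237 genes) and 5 at least 2-fold higher (1.70%), Mfsd2a most (1.3 against 8.2 TPM).

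The DC101 library was not read by the rule and held epithelial RNA (0.583% of TPM, beside 0.482% in the untreated tumor). The sum was larger, but the 15 epithelial markers had a median difference in L of -0.31, so most of them were lower with DC101. In the DC101 library all 90 genes were below the day 3 vehicle library, as were 60.6% of the 9237 genes. Of the 90, 62 were lower by at least 2-fold, beside 2.48% of the 9237. The median difference in L was -1.28 against -0.10 for the 9237 genes, with a range from -3.93 (Kcnmb4) to -0.19 (Clstn2 and Prr29). This pair shares the day 3 vehicle library with the rule, so a chance high value there enters both. The genes most lowered were Kcnmb4, 2610528A11Rik (39.4 against 3.6 TPM), Sphk1, Lrrn3 (10.8 against 1.0) and BC021891 (13.1 against 1.4). The least lowered were Clstn2 (13.5 against 11.7 TPM), Prr29 (60.2 against 52.6), Mfsd2a (33.5 against 25.4), Dmkn and Cmbl.

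Against the day 21 vehicle library, 77 of the 90 genes were higher with DC101, beside 38.9% of the 9237 genes. Of the 90, 14 were higher by at least 2-fold (0.823% of the 9237) and none was lower by 2-fold (0.390%). The median gene stood at 40.2% of its untreated TPM with DC101 and at 30.2% with vehicle. Since a low value in the day 21 vehicle library helped to choose the genes, a higher value in another library is favoured in this pair, and the count is a description. Skeletal muscle genes held 1.57% of TPM with DC101 and 0.287% with vehicle, and their part in the difference was not tested. Car4, Olfm5 and Cyp2c40 lay highest above vehicle, by 2.00, 1.89 and 1.56 in L, and Egfl6 (3.6 against 6.8 TPM) lowest. Secreted, adhesion and matrix genes had 5 of 9 at least 2-fold higher, enzymes and lipid carriers 3 of 20, and ligands, receptors and modulators 2 of 15. Transcription regulators had 1 of 11, channels and transporters 1 of 17, and the remaining genes 2 of 18. These groups were drawn after the values were seen. The plot of these 2 libraries shows Kcnmb4, Sphk1 and 2610528A11Rik low in both.

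**Figure D3:**
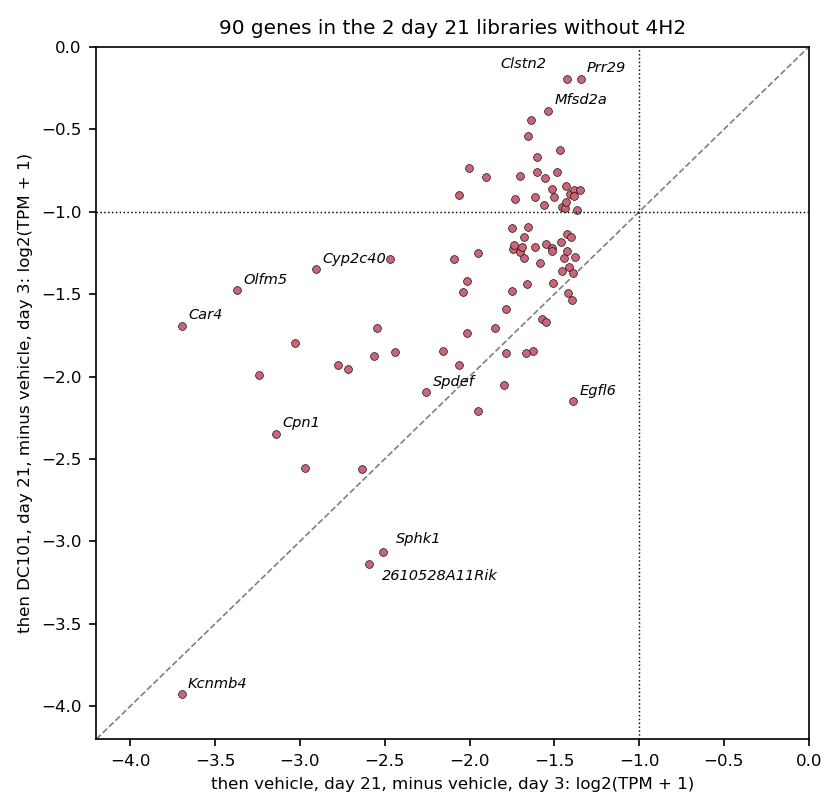
Each point is 1 of the 90 genes; the axes give log2(TPM + 1) minus the day 3 vehicle library for vehicle (x) and DC101 (y) at day 21, the dashed line marks equal values and dotted lines a 2-fold drop. All points lie left of the vertical dotted line by the rule, 62 lie at or below the horizontal one, and 77 lie above the dashed line. Of the 9237 genes, 2.48% were at least 2-fold lower with DC101 than in the day 3 vehicle library. With DC101, 38.9% were higher than with vehicle at day 21.

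In the libraries with 4H2 the genes were lower still, together with the epithelial markers. With 4H2, 87 of 90 genes were at least 2-fold below the day 3 vehicle library (29.8% of the 9237 genes were), at a median of -3.58, and with both antibodies 86 (26.5%), at -3.28. The epithelial list had medians of -5.92 and -3.35 in the same pairs. Of the 90 genes, 12 lay below the epithelial median with 4H2 and 42 with both antibodies. With DC101, where the epithelial median was -0.31, 88 did. In the 3 libraries that chose the genes, the epithelial medians were -1.61 (gefitinib day 3), -0.96 (day 14) and 0.07 (vehicle day 21). There 77, 90 and 90 genes lay below them, and the last 2 counts were fixed by the rule, which puts each gene at least 1.34 below the untreated tumor. How many of the 9237 genes lay below any of these epithelial medians was not counted, so these counts are a description. The genes within 2-fold of the untreated tumor were Cmbl, Foxo4 and Aqp4 with 4H2, and these 3 with Acyp1 (20.3 against 9.7 TPM) for both antibodies. In all, 61 of the 90 genes, and 136 of the 9237, were at least 2-fold lower in each of the 6 libraries after day 3 vehicle. All 90 pass the 3 libraries that chose them by construction, as 243 of the 9237 do. The other comparisons share the day 3 vehicle library with the rule, so the count of 61 is a description.

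Comparisons among the 3 antibody libraries do not involve the libraries that chose the genes. With 4H2 against DC101, 67 of the 90 genes were at least 2-fold lower (21.6% of the 9237 genes) and 1, Jag2, higher (3.75%); with both antibodies against DC101, 63 were lower (17.8%) and 1, again Jag2, higher (3.07%). Mia, Dmkn, Slc39a8 and Foxa1 were lowest with 4H2 against DC101, by -6.64, -6.07, -5.86 and -5.46 in L. The summed epithelial markers differed in the same direction (0.00533% and 0.0460% against 0.583% of TPM), with none of the 15 listed at 0, and their part in these differences was not tested. With both antibodies against 4H2 alone, 16 genes were at least 2-fold higher (4.30%) and none lower (0.0758%). The 16 became 31 with a pseudocount of 0.1 and 6 with one of 5. Dmkn (10.2 against 0.3 TPM), Perp (34.3 against 3.3), Fxyd3 (7.3 against 0.6), Slc39a8, Foxa1, Fmo2 and Mia differed most. At the other end stood Arhgef38 (0.2 against 0.9 TPM), Apln, Ctnnd2, Lrrn3 and Fgfr4, by -0.66 to -0.41 in L. Epithelial markers were higher in that pair too, such as Krt8 (72.7 against 6.6 TPM).

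**Figure D4:**
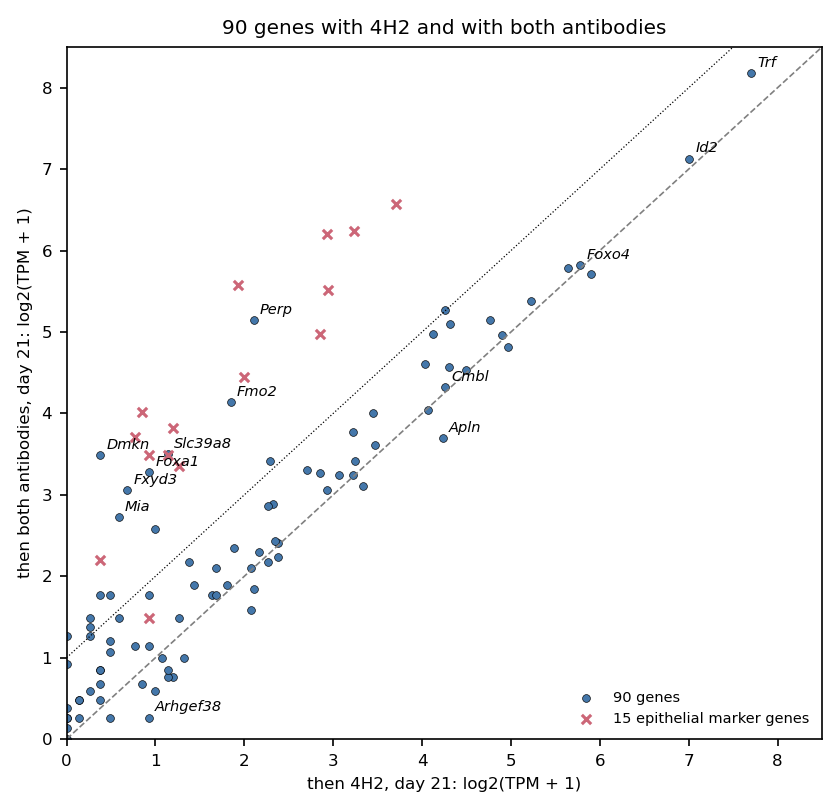
Blue points are the 90 genes and red crosses the 15 epithelial marker genes; the axes give log2(TPM + 1) with 4H2 (x) and with both antibodies (y), the dashed line marks equal values and the dotted line 2-fold higher with both. Dmkn, Perp, Fxyd3, Slc39a8 and Foxa1 lie above the dotted line, among the epithelial crosses, whereas Foxo4, Cmbl and Id2 lie near the dashed line.

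Of 32 gene lists with 507 entries, 6 held any of the 90 genes. They held 7 of the 90 (7.78%), beside 3.23% of the 9237 genes, and the other 83 were in no list. All 23 mitosis and cell division genes were at least 2-fold lower than vehicle at days 3 and 14 of gefitinib, but 2 with vehicle at day 21 and 1 with DC101. Of 29 DNA replication genes, 25 and 26 were lower at days 3 and 14 and none at day 21 in either library. Of 26 cholesterol and fatty acid genes, 23 and 22 were lower, then 1 and none, and of 22 EGFR and MAPK output genes, 11 and 10, then 1 and none. The epithelial list went from 13 and 7 of 15 to none in both day 21 libraries. Some genes of these lists were at least 2-fold higher than in the untreated tumor with vehicle at day 21. They were 6 of the EGFR and MAPK output, 5 of the epithelial and 1 of the cholesterol and fatty acid genes. Other lists kept more genes low: of 7 club and secretory cell genes, 4 and 3 were lower at days 3 and 14 and then 5 with vehicle and 4 with DC101; 3 of its genes were left out of the set by name. Of 6 channel and transporter genes of secretory epithelium, Aqp4 among them, 3 were lower in each of the 4 libraries counted separately. Only 2 were lower in all 3 of the libraries that chose the genes. Of 15 alveolar type 2 genes, 10 and 8 were lower, then 3 and 1, while 2 and 3 were at least 2-fold higher on gefitinib and 2 with vehicle at day 21. The hypoxia and glycolysis list, which holds Egln3, had 7 and 10 of 16 lower, then 4 and 2.

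**Figure D5:**
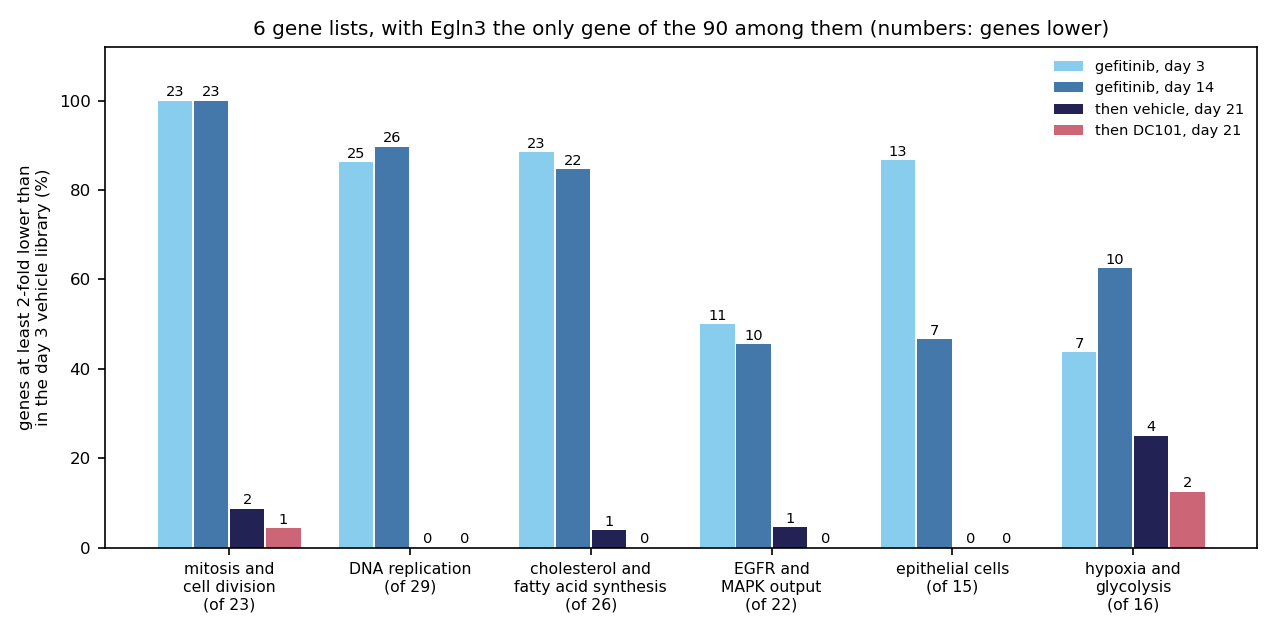
Bars give the percentage of each list's genes (those with at least 10 TPM in the day 3 vehicle library, number in brackets) that were at least 2-fold lower than that library in 4 later libraries, with the number of genes above each bar. Mitosis, DNA replication, cholesterol, EGFR and MAPK output and epithelial lists have 0 to 2 genes lower in the day 21 libraries. Of the 9237 genes, 3.46% (vehicle) and 2.48% (DC101) were lower there; the rule fixed that all 90 genes were lower with vehicle.

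By position, 88 of the 90 symbols matched a RefSeq gene of GRCm38.p6, all protein coding; the others are BC021891 and LOC102639847. Chromosomes 12 and 16 held 7 genes each (7.95% of 88, beside 3.65% and 3.35% of the matched genes among the 9237). Slc5a3 and Mrps6, which share exons, are both counted on chromosome 16. Chromosome X held 5 (5.68% beside 2.6%), and chromosomes 5 and 8 held 1 each (1.14% beside 6.25% and 6.06%). Genes of the set within 1 Mb of each other were Slc5a3, Mrps6 and Clic6 on chromosome 16, Bdh2 and Slc39a8 on chromosome 3, Dmkn and Fxyd3 on chromosome 7, Spsb4 and Clstn2 on chromosome 9, and Ctnnd2 and Cmbl on chromosome 15. How often other genes of the 9237 lie so near each other was not counted. Exons of 9 genes overlap another gene on the same strand, and their values are uncertain. They are Tstd1 (with Usf1), Galr3 (with Gcat), Raet1d (with Raet1e), Slc5a3 and Mrps6 (with each other), and Trf, Mia, Prlr and Olfm4 (with predicted genes).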

How the data were processed

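RNA from 7 frozen tumors' libraries was measured by sequencing after ribosomal RNA depletion, with directional libraries, per the labels' protocols. The authors deposited TPM values for 21892 gene symbols, rounded to 1 decimal, which sum to 1000000 per library within rounding; GRCm38.p6 is the genome named per the submitters' processing notes, while the sources used here name no aligner, counter or annotation. From TPM alone the sequencing depth cannot be had, so it is unknown and no counting interval was computed.

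Groups were taken from the sample titles. Differences were computed as log2(TPM + 1), with a pseudocount of 1 that understates changes of low genes, and a gene was counted at a 2-fold difference. Shares over all genes refer to the 9237 genes with at least 10 TPM in the day 3 vehicle library. They were chosen by that library alone, which can favour lower values elsewhere; how far it did was not tested. Their median difference from it was below 0 in every later library. Past 2-fold, however, more were higher than lower with vehicle at day 21 (6.84% against 3.46%) and with DC101 (5.65% against 2.48%). Names were left out after the 100 highest scores were taken. The 90 genes, the functional groups and the gene lists were chosen with earlier results of these data known, and the groups after the values were seen. Genes named in the text are the 20 highest scores, the 8 most abundant, those in a list, those around the limit and the extremes of the antibody and day 21 comparisons; all others were chosen after their values were seen. Symbols, promoters and exons came from RefSeq and GENCODE tables of GRCm38. Python 3.11.15, pandas 2.3.3 and matplotlib 3.10.9 were used, and the selection and counting were tested on simulated data.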

Additional observations from a re-analysis of the deposited data

How the results depend on the processing

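No paired analysis was possible because each group has 1 library and no result comes from a test. Each of 15 counts of genes past 2-fold was recomputed under 8 alternatives: 6 planned, and 2 chosen after seeing the data (rescaling without 12 skeletal muscle genes, and 81 genes without same-strand overlap). Of 120 values, 99 were within 1.5 times the reported count. The counts below the day 3 vehicle library (62, 87 and 86) and of genes lower with 4H2, or both antibodies, than with DC101 (67 and 63) stayed within it under all 8. With names left out before ranking the set had 100 genes, all 90 included; with at least 5 TPM in place of 10 it had 91 (77 shared), and with at least 20 TPM 84 (69 shared).

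With a pseudocount of 0.1, 31 genes in place of 16 were higher with both antibodies than with 4H2 and 1 in place of 0 lower, 3 in place of 1 were higher with both than with DC101, 11 in place of 5 were higher at day 14 than at day 3 of gefitinib, and 2 in place of 1 were lower at day 21 with vehicle than at day 14. With a pseudocount of 5 the same 16, 1, 5 and 1 became 6, 0, 1 and 0, while 7 in place of 14 were higher with DC101 than with vehicle at day 21, 0 in place of 1 higher with 4H2 than with DC101, and 3 in place of 7 lower at day 14 than at day 3. Median-of-ratios rescaling gave 3 genes higher than with DC101 for 4H2 and 3 for both antibodies, and rescaling without the muscle genes 3 for both. A minimum of 5 TPM gave 1 gene lower with DC101 than with vehicle, 2 higher with both antibodies than with DC101 and 2 lower at day 21 than at day 14, and a minimum of 20 TPM gave 9 higher with DC101 than with vehicle and 0 lower at day 21 than at day 14. Without same-strand overlaps, 3 genes were higher at day 14 than at day 3.

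Median-of-ratios rescaling moved the median of all 9237 genes from -0.45 to -0.20 for 4H2 against day 3 vehicle and from -0.40 to -0.17 for both antibodies, and the medians of the 90 genes from -3.58 to -3.40 and from -3.28 to -3.07. With 4H2, 33 of the 90 genes were below 1 TPM and 7 were listed at 0, against 10 and 1 at day 3 of gefitinib; why counts move with the pseudocount was not tested.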
